A study of Canis lupus familiaris with 24 samples.

Results

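The 10 genes described here encode proteins of elastic fibres and matricellular or cell-adhesive proteins of the extracellular matrix: TGFBI, FN1, THBS1, TNC, SPARC, FBN1, FBLN1, FBLN5, LTBP1 and LTBP2. They were taken by symbol from a table of 32704 dog genes, and all 10 were present. RNA was sequenced as 24 stranded mRNA libraries from MDCK cells, a canine kidney epithelial cell line, in 8 groups of 3 libraries. Both sublines used, MDCK-II and MDCK-NBL2, gave cells without treatment at day 0 and at day 4, and cells exposed to TGFb at day 4. The remaining groups were MDCK-NBL2 cells that carried an siRNA on top of TGFb, either a control (siCTR) or siPRRX1, which targets the transcription factor PRRX1; both were collected at day 4. In the labels, untreated cells count as epithelial, treated MDCK-II cells and siPRRX1 cells as partial epithelial-mesenchymal transition (EMT), and treated MDCK-NBL2 cells with or without siCTR as full EMT. No untreated siRNA group was analysed here, so each siRNA effect is an effect under TGFb.

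Elastic fibres have a core of elastin laid on microfibrils, whose main building block is fibrillin-1, the product of FBN1. Fibulins tie the parts together: FBLN5 links elastin to cells, and FBLN1 is found in fibres and basement membranes. The latent TGF-beta binding proteins resemble fibrillins. LTBP1 stores latent TGF-beta in the matrix, whereas LTBP2 binds microfibrils without holding the cytokine. Fibronectin (FN1) is a fibrillar adhesive protein that directs the assembly of other matrix components. Matricellular proteins, such as thrombospondin-1 (THBS1), tenascin-C (TNC) and SPARC, act on cell adhesion and signalling more than on tissue structure. TGFBI is a secreted adhesive protein named for its induction by TGF-beta.

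Total counts ran from 6134929 to 27567296 per library. Of the 10 genes, 9 passed the filter on low counts, and TNC did not. SPARC, FBN1 and LTBP2 passed only through the treated MDCK-NBL2 libraries, so their difference from the other groups is partly fixed by the filter. They are described by their counts, and the ratios and folds given for them against those groups are not read as tests. The counting intervals pool the reads of a group and leave out the spread between libraries. Untreated MDCK-NBL2 replicate 2 at day 4 stood apart from its group and carried several of these genes near the level of treated cells. Member results that compare it are given with and without it. MDCK-NBL2 replicate 1 at day 0 was also high in TGFBI. Of an epithelial list of 6 markers, 4 were present by symbol. CDH1, EPCAM and PAX8 were detected in every group, and the summed level of the list ran from 1013 to 2791 CPM (counts per 1000000 on scaled library sizes). In MDCK-NBL2 the sum fell from 1777 to 2791 CPM in untreated day 4 libraries to 1198 to 1308 CPM with TGFb, without overlap. With siCTR it ran from 1013 to 1362 CPM and with siPRRX1 from 1566 to 2123.5 CPM. In MDCK-II it ran from 1566 to 2036 CPM untreated at day 4 and from 1417 to 1637 CPM with TGFb. CDH16 was at 0 in the treated MDCK-NBL2 groups. In bulk RNA, fewer cells of a kind and less RNA per cell cannot be told apart.

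In the library that stood apart, TGFBI reached 19.1% of the mean of TGFb-treated MDCK-NBL2 cells, against 0.00393% and 0.00277% in its partners. FN1 reached 56.0%, against 3.30% and 3.92%. THBS1, FBLN5 and LTBP1 reached 89.0%, 89.4% and 83.9% of the treated mean. These 5 genes were thus far higher in that library than in the other two of its group. SPARC, FBN1 and LTBP2 stayed at 6.39%, 5.23% and 7.51% of the treated mean there, and TNC was at 0. FBLN1, which was lower in treated cells, stood at 197% of the treated mean, against 292% and 221% in the other libraries.

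**Figure D1:**
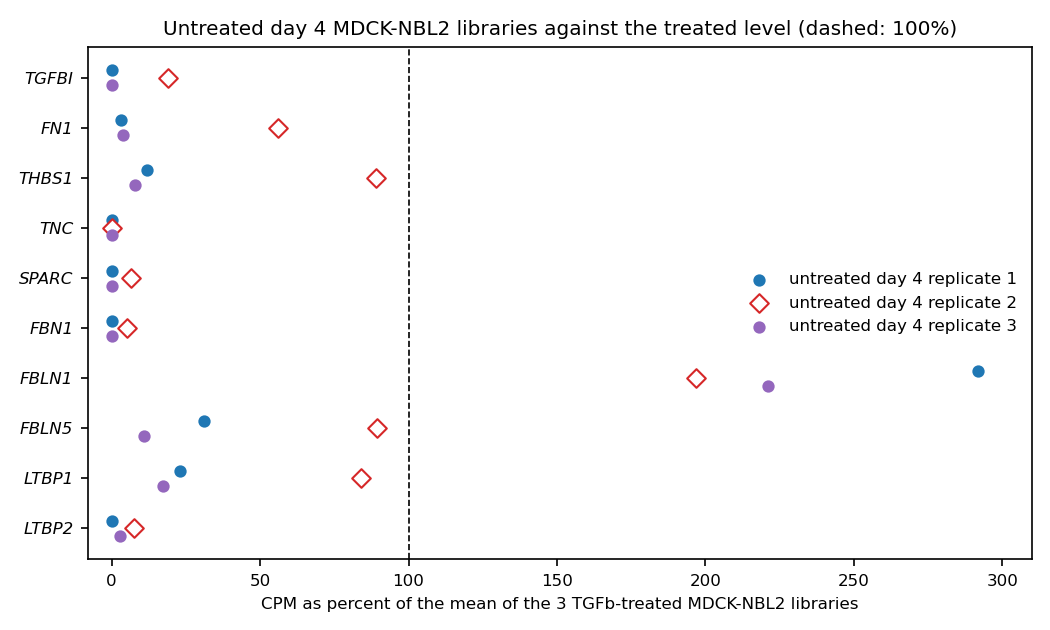
Each untreated day 4 MDCK-NBL2 library is plotted as a percentage of the mean CPM of the 3 TGFb-treated MDCK-NBL2 libraries (horizontal axis) for each gene (vertical axis). Replicate 2, the open diamond, lies at 83.9% to 89.4% for THBS1, FBLN5 and LTBP1, and at 5.23% to 7.51% for SPARC, FBN1 and LTBP2.

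The first comparison asks which of these genes respond to TGFb in MDCK-II cells. TGFBI, FN1, THBS1 and LTBP1 rose, so 4 of the 10 genes were higher in treated than in untreated day 4 cells at an adjusted p under 0.05 (edgeR), where 11.8% of all 12466 genes tested rose and 9.27% fell. The rise was 556-fold for TGFBI and ran down to 3.22-fold for LTBP1. FBLN5 went from a mean of 20.1 to 47.9 CPM and missed the threshold, and the FBLN1 libraries overlapped. In MDCK-NBL2 cells, 7 genes were called higher and 1, FBLN1, lower, where 21.0% of genes tested rose and 23.4% fell. Of the 7, SPARC, FBN1 and LTBP2 had passed the filter through the treated libraries, so the count is not read against that share; the others were FN1, THBS1, FBLN5 and LTBP1. Without untreated replicate 2, TGFBI was called too, for 8 higher and 1 lower, where 27.1% rose and 27.7% fell.

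**Figure D2:**
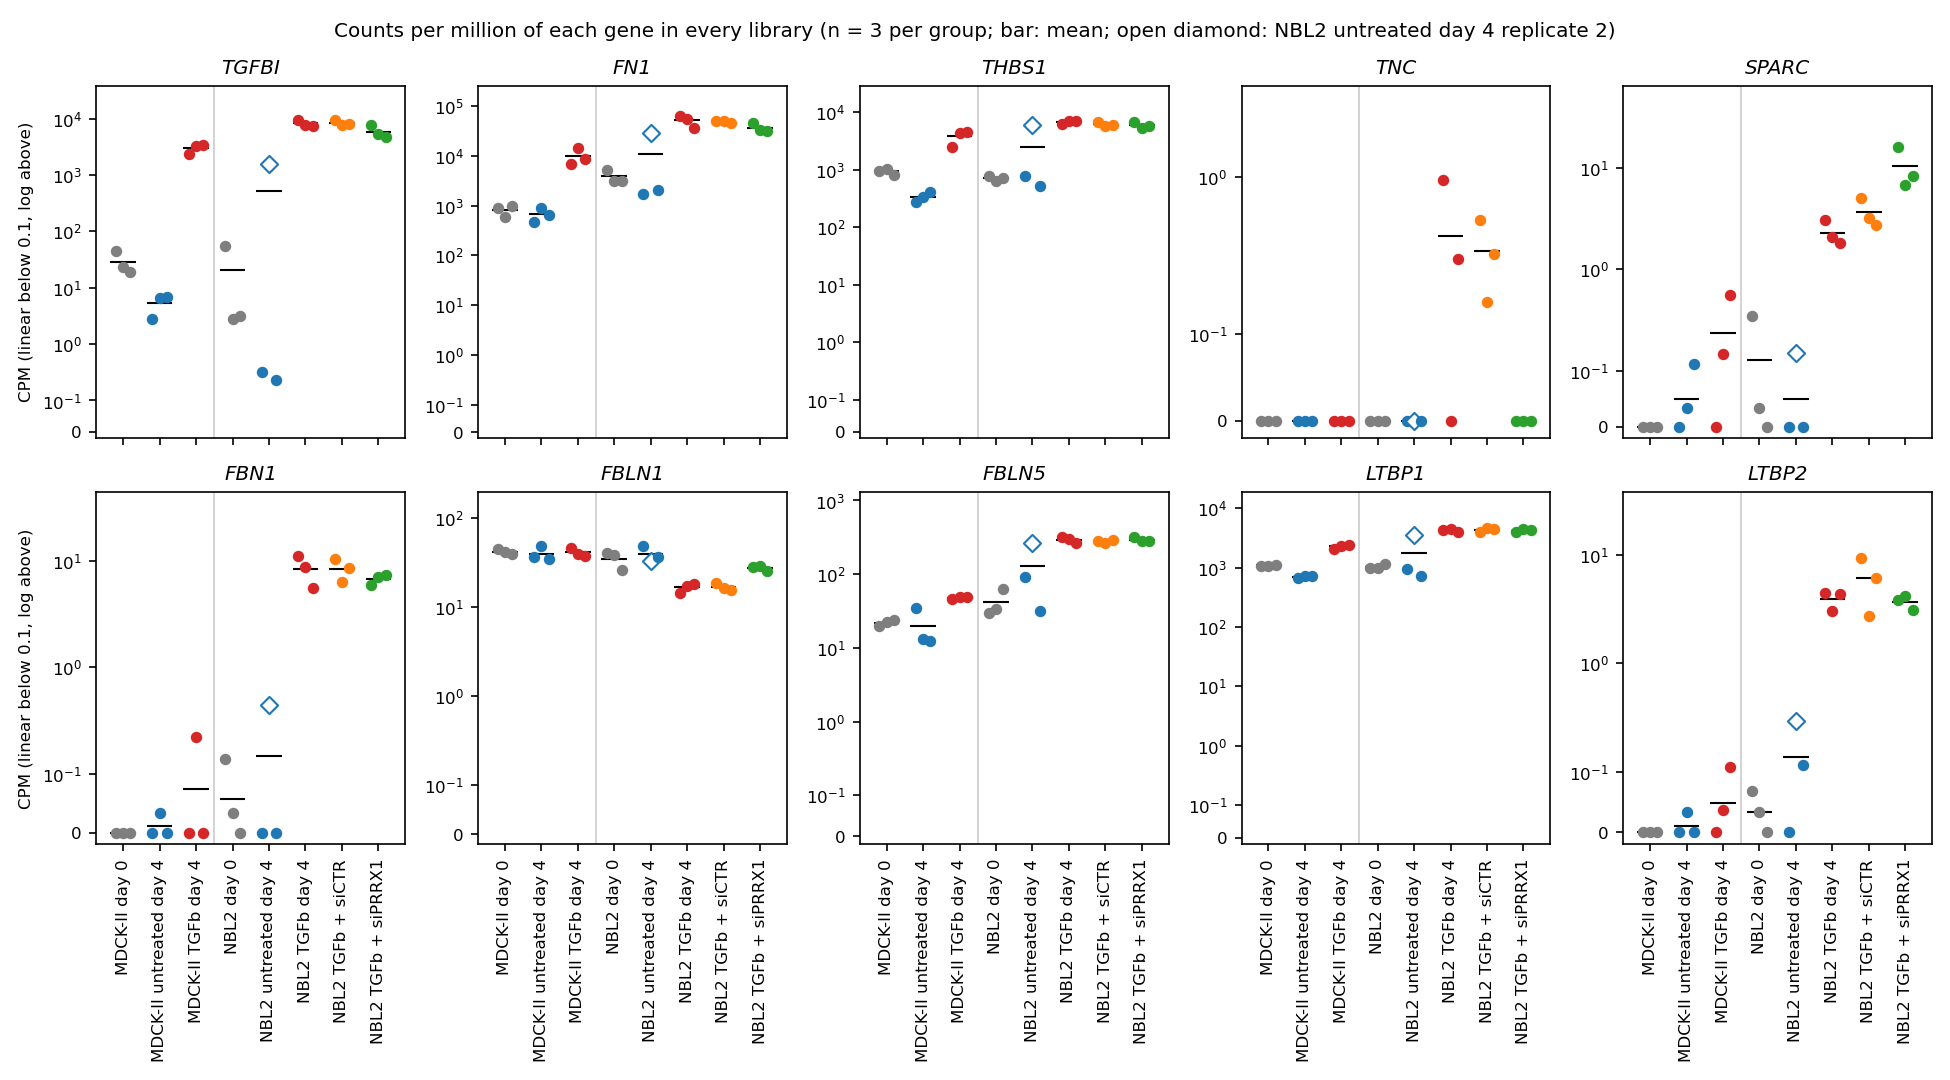
The levels in CPM of the 10 genes (vertical axis, logarithmic above 0.1) are shown for every library in the 8 groups, with the group mean as a bar and untreated MDCK-NBL2 day 4 replicate 2 as an open diamond. The treated MDCK-NBL2 groups lie highest for all genes but FBLN1 and TNC. FBLN1 is lowest there, at 14.4 to 18.3 CPM with TGFb alone, and TNC is at 0 with siPRRX1 as in all untreated and MDCK-II libraries.

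TGFBI was low in all untreated libraries but the one that stood apart, and abundant in every treated library. In MDCK-II cells it stood at 2.81, 6.69 and 6.81 CPM in untreated day 4 libraries and at 2362, 3239 and 3483 CPM with TGFb. The groups did not overlap, and the log2 fold change was 9.12 ± 2.09 (SE, n = 3 against 3; adjusted p = 0.0056, edgeR). In MDCK-NBL2 cells it stood at 0.325, 1583 and 0.229 CPM untreated and at 9515, 7799 and 7495 CPM with TGFb. The groups again did not overlap, but the untreated library at 1583 CPM left the log2 fold change at 3.97 ± 1.64 with an adjusted p of 0.056 (edgeR). Without that library the log2 fold change was 14.72 ± 1.48 (adjusted p = 1.6e-07, edgeR). That value rests on 163485 counts against 10, a ratio of 27151 with an exact 95% counting interval of 14763 to 56620. With siCTR, TGFBI was at 9343, 7871 and 8079 CPM.

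Day 0 levels of TGFBI lay between these extremes. MDCK-II libraries held 44.9, 23.2 and 18.8 CPM at day 0, and MDCK-NBL2 libraries 55.6, 2.84 and 3.097 CPM. Replicate 1 of MDCK-NBL2 was thus the high one, and the lines overlapped. Against day 0, TGFb-treated cells were higher by 6.70 ± 1.87 on the log2 scale in MDCK-II (adjusted p = 0.011, edgeR) and by 8.65 ± 2.04 in MDCK-NBL2 (adjusted p = 0.0014, edgeR). Without day 0 replicate 1 the MDCK-NBL2 value was 11.45 ± 2.60 (adjusted p = 0.0013, edgeR). Both day 0 comparisons use no untreated day 4 library, apart from the shared estimate of spread.

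FN1 rose in both lines and took up a large part of the library in MDCK-NBL2. In MDCK-II cells it stood at 459, 909 and 652 CPM untreated and at 6953, 14674 and 8749 CPM with TGFb, a log2 fold change of 3.91 ± 0.76 (adjusted p = 0.0018, edgeR). In MDCK-NBL2 cells it stood at 1701, 28839 and 2018 CPM untreated and at 63125, 55010.5 and 36454 CPM with TGFb. Neither pair of groups overlapped, and FN1 made up 3.26% to 5.36% of all counts in treated MDCK-NBL2 libraries, against 0.711% to 1.46% in treated MDCK-II libraries. The log2 fold change in MDCK-NBL2 was 2.25 ± 0.71 (adjusted p = 0.015, edgeR), and without untreated replicate 2 it was 4.79 ± 0.42 (adjusted p = 3.6e-08, edgeR).

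FN1 was also the 1 gene of the 10 called between the lines before treatment. At day 0 it stood at 885, 580.0 and 992 CPM in MDCK-II and at 5209, 3150.3 and 3178 CPM in MDCK-NBL2. Every MDCK-NBL2 library was above every MDCK-II library, and the log2 difference was 2.23 ± 0.71 (adjusted p = 0.023, edgeR), where 14.8% of genes tested were higher in MDCK-NBL2. This call was lost without any one of the MDCK-II day 0 libraries or without MDCK-NBL2 replicate 1 (adjusted p = 0.05 to 0.092, edgeR). In treated cells FN1 was higher in MDCK-NBL2 than in MDCK-II by 2.35 ± 0.71 on the log2 scale (adjusted p = 0.011, edgeR).

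THBS1 was expressed in all 24 libraries and rose with TGFb. In MDCK-II cells it stood at 272, 340.5 and 407 CPM untreated and at 2488, 4386 and 4591 CPM with TGFb (log2 fold change 3.49 ± 0.59, adjusted p = 0.00068, edgeR). In MDCK-NBL2 cells it stood at 794, 6011 and 521 CPM untreated and at 6136, 7159.5 and 6960.3 CPM with TGFb. The untreated library at 6011 CPM lay just under the lowest treated one, and the log2 fold change was 1.47 ± 0.55 (adjusted p = 0.036, edgeR). Without it the log2 fold change was 3.36 ± 0.27 (adjusted p = 1.3e-08, edgeR). With replicate 2 kept, the call was lost in a fit of these groups alone (adjusted p = 0.27, edgeR) and without any one of the other libraries compared (adjusted p = 0.058 to 0.14, edgeR).

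Among the genes of latent TGF-beta storage, LTBP1 was expressed throughout and rose in both lines. In MDCK-II cells it stood at 674, 721 and 728 CPM untreated and at 2095, 2321 and 2427 CPM with TGFb (log2 fold change 1.69 ± 0.36, adjusted p = 0.0033, edgeR). In MDCK-NBL2 cells it stood at 965, 3537 and 728 CPM untreated and at 4246, 4447 and 3954 CPM with TGFb. Treated libraries were above untreated ones in both lines, with a log2 fold change of 1.27 ± 0.35 in MDCK-NBL2 (adjusted p = 0.0068, edgeR). Without untreated replicate 2 that value was 2.31 ± 0.14 (adjusted p = 9e-10, edgeR). In a fit of these groups alone with all libraries, the call was lost for LTBP1 (adjusted p = 0.17, edgeR) and for FN1 (adjusted p = 0.19, edgeR).

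LTBP2 had few counts outside treated MDCK-NBL2 cells. Its counts were 23, 25 and 29 in TGFb-treated MDCK-NBL2 libraries, or 4.41, 3.05 and 4.36 CPM. The untreated day 4 libraries of that line held 0, 8 and 1 counts, the 8 counts being in replicate 2. The count ratio scaled for depth was 25.7 (exact 95% counting interval 12.9 to 58.4). Without replicate 2 it was 128 (22.3 to 5116), on 77 counts against 1. Treated MDCK-II libraries held 0, 1 and 1 counts, so a response of LTBP2 was not detectable there at this depth. Treated MDCK-NBL2 cells were above treated MDCK-II cells by a ratio of 91.0 (24.3 to 765).

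FBN1, the microfibril gene, had the same distribution over groups. Its counts were 58, 72 and 37 in TGFb-treated MDCK-NBL2 libraries, or 11.1, 8.77 and 5.56 CPM, and 0, 12 and 0 in untreated day 4 libraries of that line. All 12 untreated counts were again in replicate 2. With all libraries the fitted model put FBN1 43.1-fold higher with TGFb. Without untreated replicate 2 it was 92.4-fold higher, with 3 counts in the whole untreated group taken as the floor. In MDCK-II cells FBN1 had 6 counts with TGFb, all in replicate 2, and 1 count without. Treated MDCK-NBL2 cells exceeded treated MDCK-II cells by a ratio of 65.8 (29.6 to 182). The intervals cover counting error only. The floor allows for it only in the group without counts, so a fold at the floor is not a confidence limit.

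FBLN5, the elastin-binding fibulin, was higher with TGFb in both lines, by similar log2 values when all libraries were kept. In MDCK-II cells it stood at 34.7, 13.1 and 12.5 CPM untreated and at 45.6, 49.3 and 48.6 CPM with TGFb. The treated libraries were all above the untreated ones, but the log2 fold change of 1.25 ± 0.49 missed the threshold (adjusted p = 0.074, edgeR). It passed in a fit of these groups with the replicate number as a block (1.42, adjusted p = 0.025, edgeR). It also passed without untreated MDCK-NBL2 replicate 2 in the shared model (adjusted p = 0.012, edgeR) and without untreated MDCK-II replicate 1 (adjusted p = 0.019, edgeR). In MDCK-NBL2 cells FBLN5 stood at 91.9, 263 and 31.7 CPM untreated and at 319, 297 and 268 CPM with TGFb. The treated range lay just above replicate 2, and the log2 fold change of 1.19 ± 0.48 was at the edge of the threshold (adjusted p = 0.05, edgeR). Without replicate 2 it was 2.23 ± 0.41 (adjusted p = 0.00014, edgeR), and without any one of the other libraries compared the call was lost (adjusted p = 0.074 to 0.16, edgeR). Between treated cells of the lines FBLN5 was higher in MDCK-NBL2 by 2.62 ± 0.50 (adjusted p = 0.00035, edgeR). At day 0 it stood at 19.7, 22.5 and 23.8 CPM in MDCK-II and at 29.6, 33.6 and 63.0 CPM in MDCK-NBL2. Those groups did not overlap either, without a call (adjusted p = 0.17, edgeR).

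FBLN1 moved the other way. In MDCK-NBL2 cells it stood at 48.8, 32.9 and 36.9 CPM untreated and at 14.4, 17.4 and 18.3 CPM with TGFb. The groups did not overlap, and FBLN1 fell by a log2 value of 1.24 ± 0.18 (adjusted p = 5.4e-05, edgeR). Without untreated replicate 2 it fell by 1.36 (adjusted p = 4.5e-06, edgeR). In a fit of these groups alone with the replicate block, the call was lost. There 0 of the genes described here were called, where 0.351% of genes tested were. In MDCK-II cells it stood at 36.7, 48.2 and 34.6 CPM untreated and at 46.8, 39.9 and 37.9 CPM with TGFb. These groups overlapped, with a log2 fold change of 0.06 ± 0.17 (adjusted p = 0.85, edgeR). At day 0 the lines overlapped as well, at 44.9, 41.5 and 39.6 CPM in MDCK-II and 40.7, 38.6 and 26.3 CPM in MDCK-NBL2.

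SPARC, a collagen-binding matricellular protein, was low throughout. Its counts in TGFb-treated MDCK-NBL2 libraries were 16, 17 and 12, or 3.07, 2.07 and 1.80 CPM, against 0, 4 and 0 in untreated day 4 libraries. The ratio was 33.8 (12.3 to 130). Without untreated replicate 2, which held the 4 counts, the level was 24.9-fold higher with TGFb at the floor of 3 counts. Treated MDCK-II libraries held 0, 4 and 5 counts against 2 in their untreated group, a ratio of 5.01 (1.04 to 47.6) that did not pass the test (adjusted p = 0.25, edgeR). SPARC was higher in treated MDCK-NBL2 than in treated MDCK-II cells by a ratio of 11.8 (5.70 to 27.5).

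TNC was the least detected of the 10 genes. It had 5, 0 and 2 counts in TGFb-treated MDCK-NBL2 libraries and 12, 1 and 2 counts with siCTR. All other groups were at 0, so its 22 counts all came from treated MDCK-NBL2 cells. TGFb-treated MDCK-NBL2 cells were 7.02-fold higher than untreated day 4 cells at the same floor, with their 7 counts taken as exact. Without untreated replicate 2 that value was 3.88-fold. An exact two-sided permutation test over the libraries gave p = 0.4, where 0.1 is the smallest value that 3 against 3 allows.

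The difference between the lines' responses was tested directly, as the MDCK-NBL2 log2 fold change minus the MDCK-II one. FBLN1 was the 1 gene called lower, at -1.29 ± 0.24 (adjusted p = 0.006, edgeR), where 3.18% of genes tested were lower. It missed the threshold in a fit of the 4 groups alone (adjusted p = 0.069, edgeR). Without untreated MDCK-NBL2 replicate 2, FBLN1 differed by -1.41 ± 0.24 (adjusted p = 0.00061, edgeR), and TGFBI and LTBP1 were called higher, where 9.93% of genes tested were higher and 11.2% lower. TGFBI then differed by 5.60 ± 1.49 (adjusted p = 0.012, edgeR), and LTBP1 by 0.62 ± 0.17 (adjusted p = 0.015, edgeR). With all libraries kept these differences were -5.15 ± 2.23 for TGFBI (adjusted p = 0.17, edgeR) and -0.42 ± 0.49 for LTBP1 (adjusted p = 0.68, edgeR), so their direction turned with that library. FN1, THBS1 and FBLN5 were not called in either fit, and without untreated MDCK-NBL2 replicate 3 THBS1 was called lower (adjusted p = 0.018, edgeR).

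**Figure D3:**
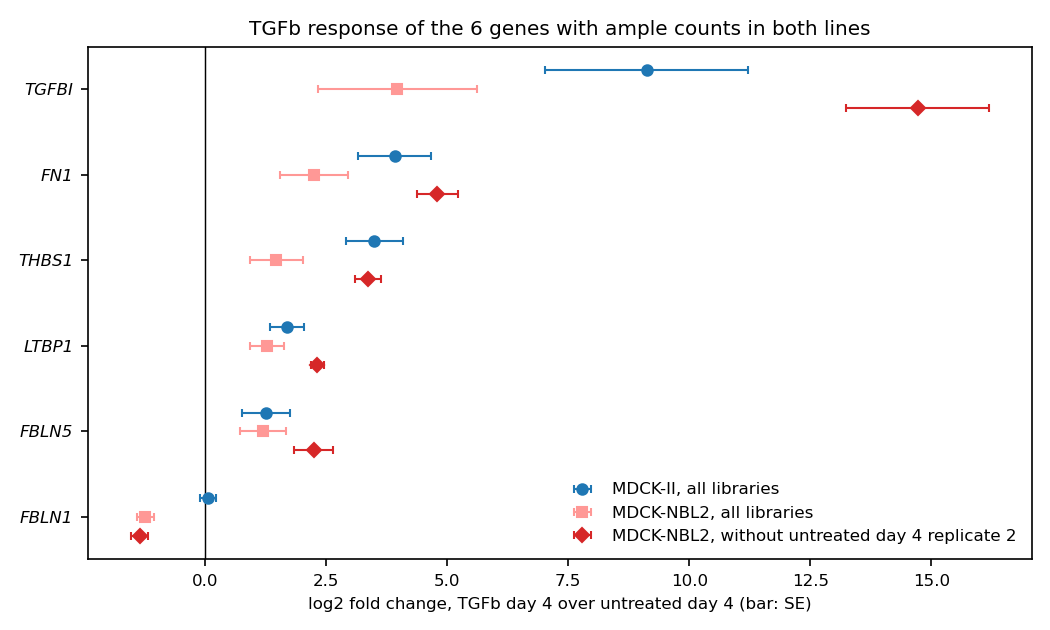
Log2 fold changes of TGFb over untreated day 4 cells (horizontal axis, bars are SE) are shown for the 6 genes with counts in both lines, for MDCK-II, for MDCK-NBL2 with all libraries, and for MDCK-NBL2 without untreated replicate 2. TGFBI in MDCK-NBL2 moves from 3.97 to 14.72 when that library is left out, and FBLN1 stays below 0, at -1.24 and -1.36.

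Levels in treated cells can be compared between the lines without any untreated library, apart from the shared estimate of spread. In TGFb-treated MDCK-NBL2 against TGFb-treated MDCK-II cells, 6 of the 10 genes were higher and 1 was lower, where 23.7% of genes tested were higher and 22.3% lower. The higher ones were FN1, FBLN5 and LTBP1, besides SPARC, FBN1 and LTBP2, which had passed the filter through these libraries, so the count is not read against that share. FBLN1 was lower, by -1.31 ± 0.18 on the log2 scale (adjusted p = 9.6e-06, edgeR). TGFBI was higher in every treated MDCK-NBL2 library than in any treated MDCK-II library, yet the log2 difference of 1.45 ± 1.49 did not pass (adjusted p = 0.45, edgeR). It did in a fit of these groups alone (adjusted p = 0.00039, edgeR). THBS1 likewise did not overlap, at 0.82 ± 0.54 (adjusted p = 0.23, edgeR), and was called once untreated MDCK-NBL2 replicate 2 was left out of the shared model (adjusted p = 0.0029, edgeR). LTBP1, at 0.89 ± 0.35 (adjusted p = 0.045, edgeR), lost its call in several alternatives (adjusted p = 0.051 to 0.11, edgeR).

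Against day 0 as the baseline, the picture in MDCK-NBL2 did not use the doubted day 4 library, apart from the shared estimate of spread. TGFb-treated cells were higher in 8 genes and lower in FBLN1, where 31.2% of genes tested were higher and 27.1% lower. The 8 again include SPARC, FBN1 and LTBP2, whose passing of the filter rests on the treated libraries. FBLN5 was higher by 2.82 ± 0.51 (adjusted p = 0.00014, edgeR), THBS1 by 3.26 ± 0.59 (adjusted p = 0.00015, edgeR) and LTBP1 by 2.04 ± 0.36 (adjusted p = 0.00012, edgeR). FBLN1 was lower, at -1.08 ± 0.18 (adjusted p = 6e-05, edgeR). In MDCK-II, 4 genes were higher than at day 0, where 17.8% of genes tested were higher: TGFBI, FN1, THBS1 and LTBP1. LTBP1, at 1.07 ± 0.35 (adjusted p = 0.024, edgeR), lost its call without any one of 5 of the 6 libraries compared (adjusted p = 0.058 to 0.067, edgeR). Without untreated MDCK-NBL2 replicate 2 in the shared model, 7 were called, where 21.2% of genes tested were higher. The added genes were FBLN5 (adjusted p = 0.016, edgeR), SPARC with 9 counts against 0, and FBN1 with 6 against 0. The 6 counts of FBN1 were all in treated replicate 2, and the 9 of SPARC were 4 in replicate 2 and 5 in replicate 3. At so few counts, neither of the last calls is taken as a rise.

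Time in culture without TGFb was the next comparison. In MDCK-II cells 0 of 9 genes were called between day 4 and day 0 with edgeR, 1 had an unadjusted p under 0.05, and DESeq2 called 1. Of all genes tested, 5.76% were higher and 4.05% lower at day 4. TGFBI, THBS1 and LTBP1 had every day 4 library below every day 0 library, which is 3 of 9 genes where 22.7% of genes tested did the same. These 3 genes were called lower once untreated MDCK-NBL2 replicate 2 was left out of the shared model, where 7.86% of genes tested were lower. In that fit THBS1 was at -1.46 ± 0.21 (adjusted p = 0.00025, edgeR). In MDCK-NBL2 cells THBS1 and FBLN5 were called higher at day 4, where 12.4% of genes tested were higher, but both calls rested on replicate 2. Without it THBS1 was at -0.10 (adjusted p = 0.79, edgeR), FBLN5 at 0.59 (adjusted p = 0.3, edgeR), and TGFBI was called lower at -6.08 ± 1.29 (adjusted p = 0.0067, edgeR), where 5.10% of genes tested were lower. Of the 911 day 0 counts of TGFBI behind that value, 802 came from replicate 1. With day 0 replicate 1 left out instead, TGFBI was called higher at day 4, at 7.48 ± 2.24 (adjusted p = 0.043, edgeR), so no direction is drawn for it.

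The siRNA comparison asks whether lowering PRRX1 changes these genes in TGFb-treated MDCK-NBL2 cells. PRRX1 itself was at 33.9, 7.35 and 3.88 CPM with siCTR and at 1.11, 0.339 and 0 CPM with siPRRX1, a log2 fold change of -4.64 ± 1.17 (adjusted p = 0.043, edgeR). FBLN1 was the 1 gene called, and it rose, where 0.810% of genes tested rose. It stood at 18.7, 16.3 and 15.7 CPM with siCTR and at 28.2, 29.1 and 25.7 CPM with siPRRX1. The groups did not overlap, and the log2 fold change was 0.70 ± 0.17 (adjusted p = 0.04, edgeR). The mean of 27.7 CPM lay between that of TGFb alone (16.7 CPM) and of day 0 cells (35.2 CPM). The siPRRX1 libraries overlapped those of day 0 only through day 0 replicate 3, at 26.3 CPM. All siPRRX1 libraries lay below every untreated day 4 library of the line, at 48.8, 32.9 and 36.9 CPM. The call was lost without any one of the 6 libraries compared (adjusted p = 0.084 to 0.16, edgeR) and without the filter on low counts (adjusted p = 0.07, edgeR).

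SPARC was highest of all groups with siPRRX1. It stood at 5.04, 3.19 and 2.75 CPM with siCTR and at 16.3, 6.89 and 8.34 CPM with siPRRX1, or 114, 20 and 17 against 322, 61 and 59 counts. Every siPRRX1 library was above every siCTR library, but the log2 fold change of 1.49 ± 0.56 did not pass (adjusted p = 0.2, edgeR). In a fit of these groups alone SPARC passed at 1.47 (adjusted p = 0.038, edgeR), and with the replicate number as a block at 1.54 (adjusted p = 0.00075, edgeR). TGFBI had the opposite order, at 9343, 7871 and 8079 CPM with siCTR and 7659, 5327 and 4714 CPM with siPRRX1. Its log2 fold change of -0.51 ± 1.46 did not pass (adjusted p = 0.93, edgeR), and with the block in these groups it did (-0.54, adjusted p = 0.012, edgeR).

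The siRNA libraries fall into separate library number series, with replicate 1 of each group in one and replicates 2 and 3 in the other. The group of MDCK-NBL2 cells with TGFb alone is split too, with replicate 1 in the series of siRNA replicates 2 and 3. All other libraries are in the series of siRNA replicate 1. Within each series FBLN1 and SPARC were higher and TGFBI lower with siPRRX1 in every library. FN1 stood at 49786, 50541 and 45751 CPM with siCTR and at 45020.1, 33588 and 31151 CPM with siPRRX1, without overlap and without a call (adjusted p = 0.86, edgeR). Across all genes tested, 15.3% had every siPRRX1 library above every siCTR library and 16.4% below, against 2 and 2 of the 9 genes here. TNC had no counts with siPRRX1 and 15 with siCTR, 5.10-fold lower at that floor with the 15 counts taken as exact. Of these 15 counts, 12 were in siCTR replicate 1, so that value rests mostly on that library. The exact two-sided permutation test gave p = 0.1, the smallest it allows. THBS1, FBLN5 and LTBP1 had log2 fold changes of -0.04, 0.09 and -0.05 and overlapping libraries. FBN1 and LTBP2 stood at 5.96 to 7.49 CPM and 3.11 to 4.18 CPM with siPRRX1 and did not pass either.

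**Figure D4:**
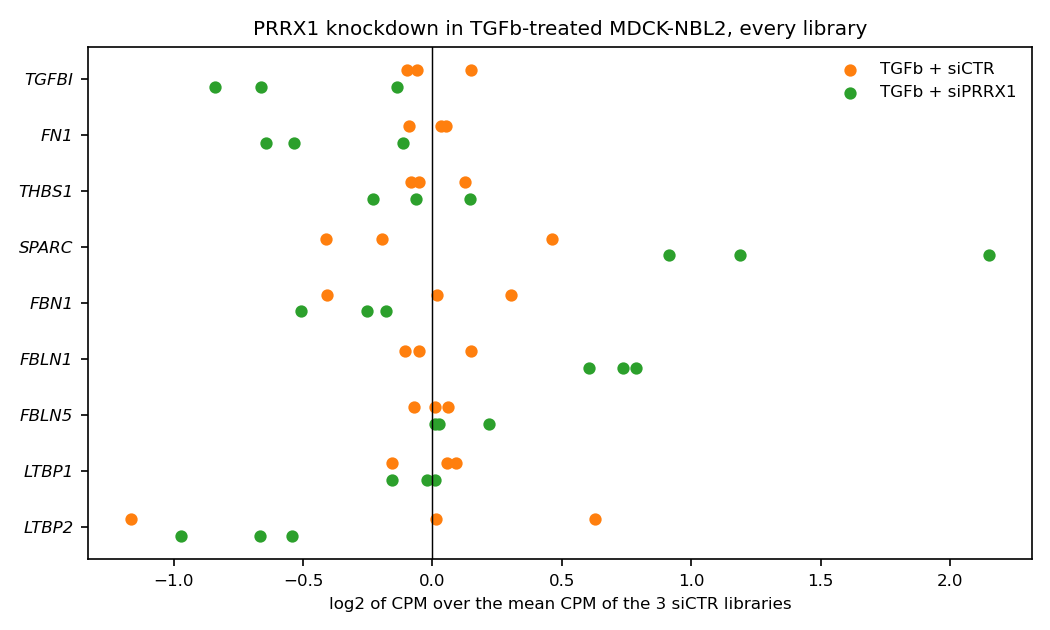
For 9 genes, the log2 ratio of each library's CPM to the mean of the 3 siCTR libraries (horizontal axis) is shown for TGFb-treated MDCK-NBL2 cells with siCTR and with siPRRX1. SPARC and FBLN1 have all siPRRX1 libraries above all siCTR libraries, and TGFBI and FN1 have all of them below.

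The control siRNA itself gave no call against TGFb alone. With edgeR 0 of 9 genes were called and 0 had an unadjusted p under 0.05, where 0.00% of genes tested were called and 212 had an unadjusted p under 0.05. DESeq2 also called 0 genes. Log2 fold changes of the 9 genes ran from -0.13 to 0.72.

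Other genes of these pathways came from lists of 19 elastic fibre and microfibril genes, 22 matricellular genes and 19 receptors and binding partners, none of which include the 10 genes above. Of the elastic fibre list 9 genes were tested. In MDCK-II cells 4 rose with TGFb and 1 fell, where 11.8% of all genes tested rose and 9.27% fell. Their median log2 fold change was 1.01, and that of all genes was -0.03. FBLN2 and FBLN7, both fibulins, rose by 1.98 ± 0.41 (adjusted p = 0.0027, edgeR) and 1.47 ± 0.30 (adjusted p = 0.0028, edgeR), and the crosslinking enzyme LOXL1 rose by 1.01 ± 0.17 (adjusted p = 0.00062, edgeR). In MDCK-NBL2 cells 3 rose and 1 fell, where 21.0% of all genes rose and 23.4% fell, with a median of 0.32 where that of all genes was -0.04. The counts were also 3 and 1 without untreated replicate 2, with a median of 0.62. LOX, which crosslinks elastin and collagen, rose by 1.96 ± 0.50 (adjusted p = 0.0038, edgeR), and LTBP4, another latent TGF-beta binding protein, fell by 2.54 ± 0.49 (adjusted p = 0.00048, edgeR). The responses of LOXL1 and FBLN2 were lower in MDCK-NBL2 than in MDCK-II, by -1.21 (adjusted p = 0.0081, edgeR) and -2.35 (adjusted p = 0.029, edgeR). With untreated replicate 2 left out these were -0.92 (adjusted p = 0.0019, edgeR) and -1.99 (adjusted p = 0.025, edgeR), and LOX had the higher response in MDCK-NBL2, by 1.79 (adjusted p = 0.037, edgeR). Between treated cells, 2 genes of the list were higher and 4 lower in MDCK-NBL2, with a median of -0.52. Treated MDCK-NBL2 cells held 260 CPM of MMRN2, an emilin family member of the vessel wall, against 0.423 CPM in treated MDCK-II cells (log2 difference 9.36 ± 0.45, adjusted p = 1.3e-11, edgeR). FBLN2 was lower there by -2.21 ± 0.44 (adjusted p = 0.00047, edgeR), and EFEMP1, another fibulin, by -4.64 ± 0.83 (adjusted p = 0.00019, edgeR).

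Of the matricellular list 9 genes were tested as well. In MDCK-II cells 3 rose with TGFb, where 11.8% of all genes rose, with a median of 0.90 against -0.03 for all genes. These were tenascin-X (TNXB) by 2.39 ± 0.37 (adjusted p = 0.00035, edgeR), SPARCL1, a relative of SPARC, by 1.96 ± 0.34 (adjusted p = 0.00087, edgeR), and FSTL1 by 3.85 ± 0.80 (adjusted p = 0.0029, edgeR). In MDCK-NBL2 cells 3 rose and 1 fell, where 21.0% and 23.4% of all genes did, with a median of 0.15 against -0.04. Without untreated replicate 2, 4 rose and 1 fell, with a median of 0.28. SMOC1, a calcium-binding relative of SPARC, was at 7.29 ± 3.72 CPM (SD, n = 3) with TGFb and at 0.623 ± 0.261 CPM without. FSTL1, a secreted glycoprotein with a follistatin-like domain, rose by 2.29 ± 0.74 (adjusted p = 0.018, edgeR), or by 5.21 ± 0.39 without untreated replicate 2 (adjusted p = 6.9e-09, edgeR). The responses of TNXB and SPARCL1 were lower in MDCK-NBL2, by -2.51 (adjusted p = 0.0091, edgeR) and -1.81 (adjusted p = 0.038, edgeR). They were, without untreated replicate 2, -1.65 (adjusted p = 0.0016, edgeR) and -1.68 (adjusted p = 0.028, edgeR), and the response of FSTL1 was higher in MDCK-NBL2 by 1.36 (adjusted p = 0.028, edgeR).

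Of the receptors and binding partners 17 genes were tested. In MDCK-II cells 9 rose, where 11.8% of all genes did, with a median of 0.95 against -0.03. Among them were the fibronectin receptor subunit ITGA5 by 4.16 ± 0.74 (adjusted p = 0.00099, edgeR), ITGAV by 1.75 ± 0.29 (adjusted p = 0.00061, edgeR) and the ligand TGFB2 by 2.24 ± 0.22 (adjusted p = 4.2e-06, edgeR). In MDCK-NBL2 cells 11 rose and 2 fell, where 21.0% and 23.4% of all genes did, with a median of 0.97 against -0.04. In the fit that left out untreated replicate 2, 12 rose and 2 fell, with a median of 1.48. The hyaluronan receptor CD44 rose by 1.43 ± 0.24 (adjusted p = 0.00019, edgeR), and ITGAV, a subunit of integrins that bind latent TGF-beta, by 1.47 ± 0.29 (adjusted p = 0.00062, edgeR). ITGA9, whose integrin binds tenascin-C, fell by 1.32 ± 0.21 (adjusted p = 0.00011, edgeR). For the difference of responses, 3 genes were called lower in MDCK-NBL2 with all libraries, with a median of -0.29. Without untreated replicate 2, 5 were called higher and 4 lower, with a median of 0.37, so the list has no stable direction. TGFB2 was lower in both fits, by -1.40 (adjusted p = 0.012, edgeR) and -1.35 (adjusted p = 0.005, edgeR).

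Markers of other cell types were checked because fibroblasts are a main source of many of these proteins. The summed fibroblast list of 6 genes ran from 0.808 to 7.42 CPM in untreated day 4 MDCK-II libraries and from 13.4 to 48.0 CPM with TGFb. DCN, LUM and FAP were at 0 in the treated libraries, and PDGFRA alone made up 13.3 to 47.9 CPM. In MDCK-NBL2 the sum ran from 2.52 to 29.2 CPM untreated and from 9.62 to 23.8 CPM with TGFb, where PDGFRB and FAP were at 0. Summed endothelial and leukocyte markers stayed at or below 9.60 and 5.26 CPM in every library, and CD3E was at 0 throughout. The part of these markers in the results was not tested.

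The genes varied together over the 24 libraries, which share their treatments, lines and depth, so the correlations only describe this set. On log2 CPM, FBN1 and LTBP2 had a Pearson r of 0.984 and THBS1 and LTBP1 of 0.980. FBN1, LTBP2 and SPARC had few or no counts outside treated MDCK-NBL2 cells and passed the filter through them. Their correlations, also with genes outside the group, cannot be separated from that contrast. FBLN1 ran against the other tested genes, at -0.867 to -0.641. The closest genes outside the group were ITGB6 (r = 0.979) and RASGRP1 (0.977) for TGFBI, and SLC23A2 (0.988) and SRPX2 (0.988) for FN1. For THBS1 they were BAMBI and SPECC1 (both 0.978), and for LTBP1 AKIP1 (0.983) and PLA2G15 (0.980). FBN1 was closest to GASK1B (0.989) and STMND1 (0.986), and LTBP2 to STMND1 (0.991) and SLC8A3 (0.983). SPARC was closest to DDC (0.959) and ST3GAL5 (0.958), FBLN5 to ATP6AP2 (0.985) and ITGB5 (0.983), and FBLN1 to REPIN1 (0.911) and SLCO4A1 (0.901).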

How the data were processed

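The authors deposited whole-number counts per gene for 24 libraries. Per the submitters' processing notes, STAR 2.5.3a, RSEM 1.3.0, FastQC and the build CanFam3.1 were used; their roles, the annotation release, the strand setting and any rounding are not stated. Without lengths, levels are not compared between genes, and gene counts do not separate isoforms. The members and lists were chosen with earlier results of these data known. All 10 members are named; of other lists, up to 3 genes with the smallest adjusted p per comparison, and per member the 2 genes best correlated with it.

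Counts were tested with edgeR 4.0.16 (R 4.3.3) quasi-likelihood F tests in 1 model of 8 groups with 16 residual degrees of freedom, TMM scaling, and filterByExpr (minimum count 10, total 15), which left 12466 genes. P-values were Benjamini-Hochberg adjusted over these, and an adjusted p under 0.05 was called. CPM are on TMM-scaled library sizes, and SE was obtained by dividing the log2 fold change by the root of the F statistic. Folds against a group without counts set that group at 3 counts and take the other count as exact, so they are not confidence limits. Intervals are exact at 95%. The replicate numbers are in the labels, which do not say whether replicates were separate cultures, so p-values cover the spread between libraries, which may be technical. Deviations of same-numbered libraries correlated at 0.251 to 0.421 for the TGFb comparison in MDCK-II and 0.164 to 0.343 for siPRRX1, all over 0.1, and at 0.0371 to 0.282 for MDCK-NBL2. Alternatives were DESeq2 1.42.0 (size factors, Wald test), no filter, a replicate block, the library number series, only the groups compared, and each library left out. The model was tested on simulated data for the TGFb comparison in MDCK-II only. The simulation had the same spread for all genes and no library apart from its group. It thus does not test the fit with a library such as untreated MDCK-NBL2 replicate 2.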

Additional observations from a re-analysis of the deposited data

Results flagged for a closer look

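The response of FBLN1 to TGFb differed between the lines by -1.29 on the log2 scale (MDCK-NBL2 minus MDCK-II), by the test of the difference itself. All 3 treated MDCK-NBL2 libraries lay below every untreated one, while the MDCK-II groups overlapped. The summed fibroblast markers were higher with TGFb in MDCK-II, and the summed epithelial markers were lower with TGFb in MDCK-NBL2. Their part in this difference was not tested.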

How the results depend on the processing

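Counts of called genes among the 9 tested depended on the fit, and so did the share of all genes called, in either direction, which stands in parentheses. Where treated MDCK-NBL2 cells are compared with other groups, the genes called can include SPARC, FBN1 and LTBP2. These passed the filter through the treated libraries, so such counts are not read against the share. In MDCK-NBL2 cells with and without TGFb at day 4, 8 were called (44.3% of all genes), 4 in a fit of only the groups compared (4.48%) and 0 there with the replicate block (0.351%). With the library number series as a term, 7 were called (42.7%). Between treated cells of the lines, 7 were called (45.9%), and 6 with the series as a term (43.5%). For the difference of responses, 1 was called (5.70%), and 0 in only those groups with (0.403%) or without the block (0.395%). For siPRRX1, 1 was called (2.00%), 0 without the filter (0.824%), 2 in only those groups (10.3%) and 3 there with the block (22.5%). For the lines at day 0, 1 was called (28.5%), 3 in only those groups (42.6%) and 2 with the block (44.7%). For MDCK-II over time, 0 were called (9.81%), 1 by DESeq2 (13.3%), 3 in only those groups (10.1%) and 1 with the block (4.27%). For MDCK-NBL2 over time, 2 were called (17.7%), 1 with the block over all libraries (2493 of 12466 genes), and 0 in only those groups with or without it (0.00%). Leaving out 1 library in turn gave 6 to 9 calls for TGFb in MDCK-NBL2 (35.3% to 54.8%), 1 to 3 for the difference (2.44% to 21.1%) and 0 to 1 for siPRRX1 (0.424% to 5.21%). It gave 3 to 7 for treated MDCK-II against day 0 (22.2% to 42.2%), 0 to 1 for the lines at day 0 (21.4% to 34%), 0 to 3 for MDCK-II over time (4.05% to 16.5%) and 0 to 5 for MDCK-NBL2 over time (5.80% to 41.7%). The replicate block over all libraries moved no other count by over 1.5 times.

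Some log2 values turned sign. In fits of only the groups compared, FBLN1 in treated MDCK-II against day 0 was at 0.000622, and at 0.000187 with the block. With the block there, FBLN5 was at 0.0564 in the difference and TGFBI at -2.55 in MDCK-NBL2 over time. With 1 library left out, the TGFb response in MDCK-II ran from -1.63 to 3.82 for FBN1 and from -0.0376 to 0.22 for FBLN1. The difference of responses ran from -5.74 to 5.60 for TGFBI, -2.17 to 0.88 for FN1, -0.72 to 0.98 for FBLN5 and -0.79 to 0.62 for LTBP1, each upper end being without untreated MDCK-NBL2 replicate 2. THBS1 under siPRRX1 ran from -0.14 to 0.043. Treated MDCK-II against day 0 ran from 0 to 4.27 for FBN1, whose counts were all in 1 library, and from -0.12 to 0.0406 for FBLN1. TGFBI between lines at day 0 ran from -3.30 to 0.0372. MDCK-II over time ran from 0 to 2.00 for FBN1, -0.24 to 0.0152 for FBLN1, -0.78 to 0.12 for FBLN5 and 0 to 1.99 for LTBP2. MDCK-NBL2 over time ran from -6.08 to 7.48 for TGFBI, -1.05 to 2.00 for FN1, -0.10 to 2.26 for THBS1, -2.92 to 2.503 for FBN1, -0.28 to 1.13 for LTBP1 and -0.24 to 2.40 for LTBP2, each lower end being without untreated day 4 replicate 2. The range was -3.87 to 1.08 for SPARC and -0.0204 to 0.28 for FBLN1. TGFBI was called at both ends. Low counts limit SPARC, FBN1, LTBP2 and TNC. Apart from the libraries named here and in the report, the cause of these shifts was not tested.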

Other observations

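MDCK-NBL2 replicate 1 at day 0 held 55.6 CPM of TGFBI against 2.84 and 3.097 CPM in its partners. Of the 6 counts of SPARC in that group it held 5, and of the 3 counts of FBN1 it held 2. FN1 was also highest there, at 5209 CPM against 3150.3 and 3178 CPM, while LTBP1 (977, 968 and 1134 CPM) and THBS1 (767, 625 and 727 CPM) lay close together over the 3 libraries. FBLN5 was lowest in that library, at 29.6 CPM against 33.6 and 63.0 CPM.

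With siCTR, PRRX1 stood at 33.9 CPM in replicate 1 and at 7.35 and 3.88 CPM in replicates 2 and 3. LTBP2, SPARC, FBN1 and TNC were also highest in replicate 1, at 9.41, 5.04, 10.5 and 0.530 CPM, and their lowest levels were 2.72, 2.75, 6.39 and 0.160 CPM. TGFBI (9343, 7871 and 8079 CPM), THBS1 (6714, 5807 and 5932 CPM) and FBLN1 were highest there too, while FN1 and FBLN5 were not. Replicate 1 is the only siCTR library in its library number series. SPARC was also highest in replicate 1 with siPRRX1, at 16.3 CPM, where PRRX1 was at 1.11 CPM. LTBP1 ran from 3919.7 to 4648 CPM and was lowest in replicate 1, and FBLN1 ran from 15.7 to 18.7 CPM. No relation was tested over 3 libraries.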
